A study of Mus musculus with 8 samples.

Results

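Fbp1 encodes fructose-bisphosphatase 1, and its level was followed in the lungs of 4 male fra-2 (Fosl-2 gene) transgenic mice, 14 weeks old. Each was set against a single pool of RNA from the lungs of 4 wild-type males, also 14 weeks old. Both genotypes were on a C57BL6 x CBA background, and the promoter that drives the transgene is not given in the sources used here. Each transgenic mouse was hybridised on 2 two-colour arrays, with its RNA labelled with Cy5 on 1 and with Cy3 on the other, so there were 8 arrays and the mouse is the replicate. All probes of Fbp1 were taken by name, which gave 1 probe of the 20794 on the array, for 1 of 8741 named genes. The gene was picked because this probe rose far and ranged widely between mice, so its rise and its range are given as a description, with no test.

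Fructose-bisphosphatase removes a phosphate from fructose 1,6-bisphosphate to give fructose 6-phosphate. The step runs against the one catalysed by phosphofructokinase in glycolysis and is one of the irreversible steps of gluconeogenesis, the making of glucose from smaller molecules. The enzyme is inhibited by AMP and by fructose 2,6-bisphosphate, and it is best known from liver and kidney cortex. A second gene, Fbp2, encodes the muscle form of the enzyme. In human monocytes FBP1 is known to respond to vitamin D.

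Fbp1 and Fbp2 are neighbours on mouse chromosome 13, and a long non-coding RNA gene, Gm38679, lies within the span of Fbp1. The RefSeq records also list Fbp2 as an old name of Fbp1 and Fbp1 as an old name of Fbp2. The probe annotation gives gene ID 14121 for the Fbp1 probe, which is the record of fructose-bisphosphatase 1. The 250 bases before each start in the RefSeq promoter table are shown because the transgene encodes an AP-1 transcription factor and the neighbours gave unlike values. They come from the RefSeq table of build GRCm38.p6, at chr13:62888283-62888532 for Fbp1 and chr13:62858401-62858650 for Fbp2, both on the minus strand. For Fbp1 that start lies 16 bases inside the RefSeq gene record, so the window overlaps the record, while for Fbp2 it lies at the record's edge. Capitals mark letters that match a motif searched on both strands.
Fbp1: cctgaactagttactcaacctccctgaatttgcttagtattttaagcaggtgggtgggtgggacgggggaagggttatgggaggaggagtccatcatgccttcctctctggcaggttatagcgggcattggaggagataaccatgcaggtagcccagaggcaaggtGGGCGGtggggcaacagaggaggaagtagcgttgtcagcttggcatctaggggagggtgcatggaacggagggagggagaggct
Fbp2: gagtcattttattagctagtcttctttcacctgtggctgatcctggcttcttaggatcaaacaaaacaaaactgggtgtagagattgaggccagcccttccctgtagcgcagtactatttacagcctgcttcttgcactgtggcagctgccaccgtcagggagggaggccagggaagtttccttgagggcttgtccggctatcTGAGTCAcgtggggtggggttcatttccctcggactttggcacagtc
The motifs searched were AP-1 (TGANTCA), the cyclic AMP response element (TGACGTCA), a FOXO site (TGTTTAC), the GC box (GGGCGG) and the TATA box (TATAAA). The Fbp1 window held 1 GC box, starting at position -84 from the start in that table, and none of the other letters. The Fbp2 window held 1 AP-1 match, starting at position -47. Among 32851 RefSeq promoter windows of the same length, 6.75% held the AP-1 letters, 32.7% the GC box, 1.55% the cyclic AMP response element, 3.17% the FOXO letters and 12.4% the TATA box. A match is a description of the letters, and no binding was measured here.

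Values are log2 ratios of transgenic over pool, so 1 unit is a doubling. This direction is likely only. Channel 1 is labelled as transgenic RNA and channel 2 as the pool on each array, but how the authors formed the ratio is not stated in the sources used here. With the opposite sign, every higher value below would be a lower one. The arrays gave 20585 to 20729 usable values each, with medians between -0.09 and 0.01. The 2 arrays of a mouse correlated at 0.389 to 0.685, and the lowest of these was mouse 4. The Cy3 array of mouse 4 stood apart, with an interquartile range of 0.906 against 0.451 to 0.521 on the other 7. The Fbp1 mean and range and the calls were therefore also read without it. The order of mice, the likeness to Fbp1 and the list medians by mouse were read only with it. Spot brightness was not used here, so signal over background is unknown, and ratios give no level by which to check the tissue. In whole lung, more cells that express a gene and more of its RNA per cell cannot be told apart.

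The name Fbp1 rests on moving the annotation's probe numbers by 11 to reach the rows of the values. With that shift, probes of the same gene correlated over 4735 pairs at a Spearman coefficient of 0.230, against at most 0.0537 at any other shift up to 60 each way. In the block of 1000 probe numbers that holds Fbp1, the coefficient was 0.257 over 421 pairs, against at most 0.120 at another shift. Single blocks were checked only where they hold a probe of Fbp1 or Fbp2, so names in other blocks rest on the check over all pairs. With only 1 probe, the name could not be checked within the gene. The 10 rows around the Fbp1 row had log2 ratios between -0.56 and 1.73, and the row that carries the annotation number itself lay between -0.78 and 0.60.

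Fbp1 was above the pool on 8 of 8 arrays, and none of its values was missing or a placeholder. In mouse 1 the log2 ratio was 4.07 on the Cy5 array (named by the dye of the transgenic RNA) and 4.12 on the Cy3 array, which is 16.7-fold and 17.4-fold. In mouse 2 the ratios were 3.97 and 4.18 in the same order, or 15.6-fold and 18.2-fold. The arrays of mice 1 and 2 overlapped. Mouse 3 was the lowest, at 1.41 in Cy5 and 1.91 in Cy3, or 2.66-fold and 3.75-fold. Mouse 4 was the highest, at 5.05 in Cy5 and 6.06 in Cy3, or 33.1-fold and 66.5-fold. The lower array of mouse 4 lay 0.87 above the highest array of mice 1 and 2, and the higher array of mouse 3 lay 2.06 below their lowest, so the arrays fell into 3 separate levels.

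The mouse means were 4.09, 4.07, 1.66 and 5.55 for mice 1 to 4, with a mean of 3.85 ± 1.61 (SD, n = 4 mice), which is 14.4-fold. The highest and the lowest mouse differed by 3.89, or 14.9-fold. Among 20621 probes with a value in every mouse, Fbp1 ranked 6 by its mean, 5 by its range and 8 by its SD over mice. Of those probes 25.7% passed the limma test against the pool described below, 11.1% higher and 14.6% lower. The median probe ranged by 0.42 between mice, and 95% of probes ranged by under 1.09. Mouse 3 set much of the range. Without it the mean was 4.57 and the range 1.48, and without mouse 4 they were 3.28 and 2.44. Without the Cy3 array of mouse 4 the mean was 3.72 ± 1.45 and the range 3.39.

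**Figure D1:**
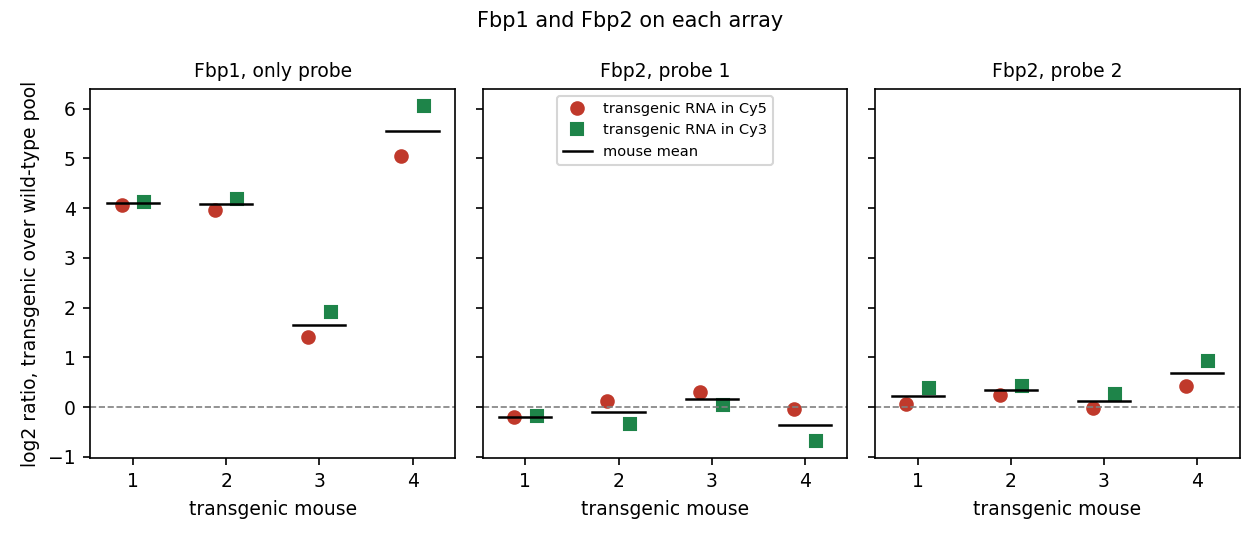
Log2 ratio of transgenic over wild-type pool for the only Fbp1 probe and the 2 Fbp2 probes, for each of 4 transgenic mice (x axis). Circles are arrays with transgenic RNA in Cy5, squares those with it in Cy3, black bars the mean of the 2 arrays of a mouse and the dashed line equality with the pool. The Fbp1 points lie between 1.41 and 6.06, with mouse 3 lowest and mouse 4 highest in both dyes, and the Fbp2 points between -0.68 and 0.93.

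The dye in which the transgenic RNA was labelled did not enter the choice of the gene, so it was tested. The Cy5 array minus the Cy3 array of a mouse was -0.06, -0.22, -0.50 and -1.01 in mice 1 to 4, so the Cy3 array gave the higher Fbp1 ratio in 4 of 4 mice. The mean difference was -0.45 ± 0.42 (SD, n = 4 mice) and did not pass by limma over all 20392 probes measured on every array (adjusted p = 0.195, unadjusted p = 0.039). Only 1 probe passed that test, or 0.0049% of them, while 24.1% had an unadjusted p under 0.05. The largest dye difference, in mouse 4, was smaller than the 3.89 between mice. Without mouse 4 the mean dye difference was -0.26 (adjusted p = 0.312).

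No probe with a wider range had a higher mean. Besides Fbp1, 4 probes ranged by as much, 1 named and 3 unnamed, and they had means between -3.48 and 0.85. The named one, Fam170a, was picked out after its values were seen. Its 2 arrays differed by 6.98 in the mouse where they differed most, against 1.01 for Fbp1. The 25 probes with a mean of at least 2 had a median range of 1.34, and Fbp1 alone among them ranged by 3.89 or more. Both measures were used to pick Fbp1, so this places it and tests nothing.

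The other strongly higher genes mostly ordered the mice in another way. Besides Fbp1, 18 named probes of 18 genes had a mean of at least 2, and they were picked by this limit after values were seen. Mouse 1 was the highest mouse for 11 of them and mouse 2 the lowest for 12. Mouse 3 was the lowest and mouse 4 the highest for 4, as for Fbp1: Retnla, Bglap, Disc1 and Tbl2. These orders are of mouse means. The 2 arrays of a mouse differed by up to 1.23 for Bglap, against a range of 1.34 between mice. Among the 18, Pkn3 arrays of a mouse differed by up to 0.60, more than its range of 0.42. Retnla, the gene of the secreted protein RELM-alpha, had mouse means of 5.85, 6.29, 5.35 and 6.34, a range of 0.99. The high probe of Tbl2, at 2.21, stands in a block where the shift of 11 was not the best, and its other 2 probes gave -0.05 and -0.15. The blocks of Retnla, Bglap and Disc1 were not checked singly. Arg1, the gene of arginase 1, had 3.58, 0.45, 3.28 and 0.71 in mice 1 to 4 on this probe, and 0.90, 0.55, 0.72 and 0.40 on its other probe. Gpnmb, which encodes a membrane glycoprotein of macrophages and osteoclasts, had 3.59, 1.15, 3.76 and 1.06. On both of these probes, mice 1 and 3 were high and mice 2 and 4 low, while Fbp1 was lowest in mouse 3 and highest in mouse 4. With 4 mice, no correlation between genes was computed.

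**Figure D2:**
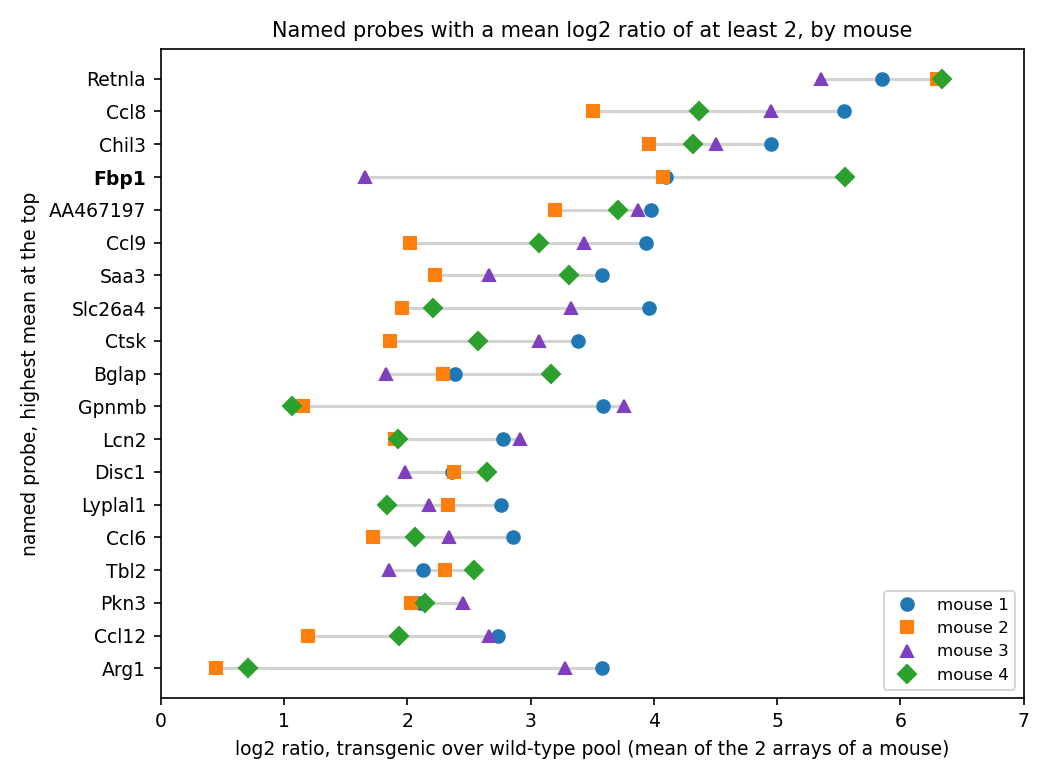
Mouse means of the log2 ratio of transgenic over pool (x axis) for the 19 named probes with a mean of at least 2, highest mean at the top; each symbol is 1 transgenic mouse and the grey bar spans the 4 mice. Fbp1 spans 1.66 in mouse 3 to 5.55 in mouse 4, while Arg1 and Gpnmb place mice 1 and 3 high and mice 2 and 4 low.

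Genes were also ranked by how closely their mouse values followed those of Fbp1. Likeness was the root-mean-square difference of the 4 mouse deviations from the own mean of a gene, over named probes measured on all 8 arrays, and a gene with 4 equal values would score 1.40. The closest scored between 0.81 and 0.90, so none of the 10 closest came near the size of the Fbp1 differences. The first was Ubox5, at 0.81, whose mouse means were 0.59, -0.07, -0.28 and 2.07. The 2 arrays of mouse 2 read -0.90 and 0.77 for that probe, and the other 3 probes of Ubox5 had means of 0.11 to 0.24. Ltf, which encodes lactoferrin, scored 0.82 with 0.79, 1.16, -0.18 and 1.43 in mice 1 to 4. Its 2 arrays differed little in each mouse. Wfdc21 scored 0.84 with 1.57, 1.40, 0.21 and 1.75. Meig1 (0.86), Cfap206 (0.89), Kif22 (0.89), Tom1 (0.89), Cyp2f2 (0.89), Spag6l (0.90) and Drc3 (0.90) followed. Their ranges over mice lay between 1.44 and 2.26, and mouse 3 was the lowest in each of these 7. Of the 10, the probes of Ubox5, Cfap206, Kif22 and Tom1 did not pass the test between mice described below. Other probes had means of -0.05 and -0.86 for Cfap206, 0.56 for Kif22, 0.09 for Tom1 and 0.97 for Ltf. Kif22 read -1.48 and 1.96 on the 2 arrays of mouse 2, -0.15 and -2.13 in mouse 3 and -1.62 and 2.49 in mouse 4. Its mouse means, and so its likeness, rest on arrays that disagree. Cyp2f2, a cytochrome P450 gene of club cells, had -1.71, 0.11, -2.15 and 0.04. For these mouse 2 was high as well as mouse 4, where Fbp1 in mouse 2 was level with mouse 1.

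**Figure D3:**
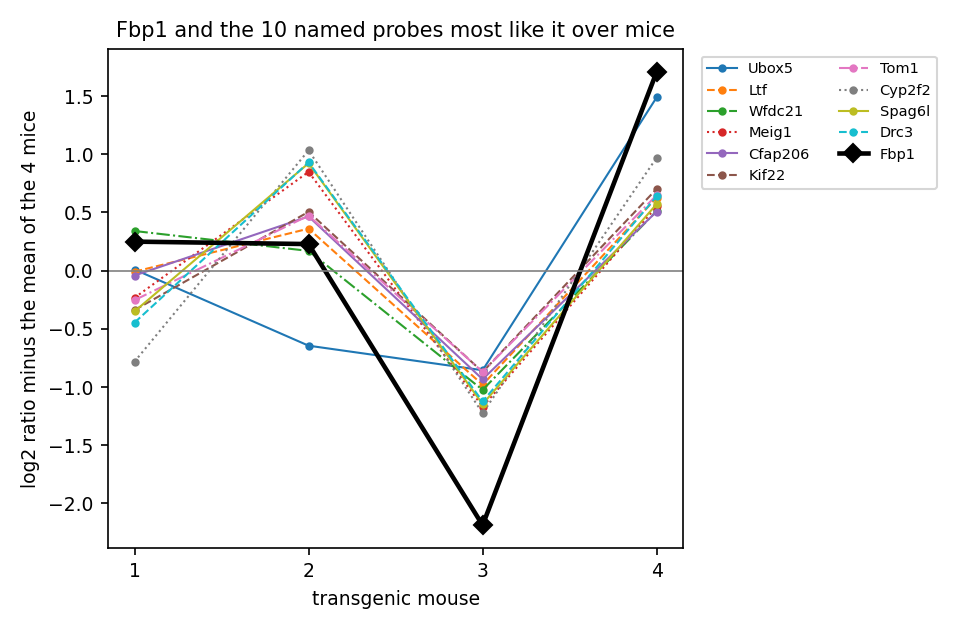
Deviation of each mouse from the mean of the 4 mice (y axis, log2) for Fbp1, the thick black line, and the 10 named probes closest to it. Fbp1 dips in mouse 3 and peaks in mouse 4 by more than any of the 10.

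The paralog Fbp2 stayed near the pool. Its first probe read -0.20 and -0.18 in mouse 1, 0.12 and -0.33 in mouse 2, 0.30 and 0.04 in mouse 3 and -0.03 and -0.68 in mouse 4, Cy5 first. Its second probe read 0.07 and 0.39, 0.25 and 0.43, -0.03 and 0.27, and 0.43 and 0.93 in the same order. The probe means were -0.12 ± 0.22 and 0.34 ± 0.24 (SD, n = 4 mice), of opposite sign. The mean over both probes was 0.11 ± 0.06 (limma over all named genes, adjusted p = 0.257), a narrower spread than that of either probe. The second probe lies in a block of probe numbers where the shift of 11 was not the best, with a coefficient of 0.0597 against 0.124 at another shift, so its name is less sure. Probe sequences were not used here, and cross-hybridisation between the paralogs was not tested.

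The other genes of sugar metabolism lay far closer to the pool than Fbp1. Of 89 measured genes in 9 lists, Fbp1 left out, 12 were higher and 16 lower than the pool by limma with Benjamini-Hochberg adjustment, at an adjusted p under 0.05. That is 31.5% of them, against 31.9% of all 8692 named genes tested, where 13.5% were higher and 18.4% lower. Their median was -0.01, equal at this precision to the -0.01 of all named genes. Of the 89, 88 had a mean within 1 of 0 on the log2 scale. The count of 28 was 16 with mouse 1 left out, 15 with mouse 2 left out and 18 from the Cy3 arrays by themselves. The lists were chosen with earlier results of these data known, and the pool is 1 sample, so this test does not see how wild-type mice vary.

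Among enzymes of gluconeogenesis other than Fbp1, 11 were measured and 1 passed, or 9.09%, against 31.9% of all named genes. Mdh2, the mitochondrial malate dehydrogenase gene, fell by 0.44 ± 0.24 (adjusted p = 0.0188), a call lost without mouse 2 (adjusted p = 0.0695) or on the Cy5 arrays alone (adjusted p = 0.0808). None was higher by limma, also at an unadjusted p under 0.05, where 3 were lower. Pck2, the mitochondrial phosphoenolpyruvate carboxykinase gene, had a mean of -0.25 ± 0.22 (adjusted p = 0.0877), and the pyruvate carboxylase gene Pcx 0.22 ± 0.28 (adjusted p = 0.18). G6pc3, a glucose 6-phosphatase gene of many tissues, had 0.15 ± 0.13 (adjusted p = 0.195). Pck1 and G6pc, the liver forms, were not analysed here.

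Of the glycolysis genes, which include the phosphofructokinases that work against Fbp1, 16 were measured, and 2 were higher and 2 lower. That is 12.5% each way, against 13.5% higher and 18.4% lower of all named genes. Pfkl, Pfkm and Pfkp had means of 0.22 ± 0.16, -0.09 ± 0.16 and 0.02 ± 0.06 (adjusted p = 0.0902, 0.443 and 0.825). Hk2, the gene of hexokinase 2, rose by 0.88 ± 0.08 (adjusted p = 8.1e-04) and was between 0.83 and 0.99 in the 4 mice. Pklr, the liver and red cell pyruvate kinase gene, rose by 0.45 ± 0.15 (adjusted p = 0.00804), but was at 0.06 on the Cy5 arrays alone (adjusted p = 0.624). The muscle forms Eno3, a beta enolase gene, and Pgam2, a phosphoglycerate mutase gene, fell by 0.55 ± 0.19 (adjusted p = 0.00554) and 0.38 ± 0.08 (adjusted p = 0.00921). The 2 probes of Pgam2 gave -0.69 and -0.06. Marker genes of heart and skeletal muscle were lower in 9 of 10 measured genes, against 18.4% of all named genes, with list medians of -1.18 to -0.57 by mouse, and their part in the Eno3 and Pgam2 values was not tested. Of 2 measured genes that set the level of fructose 2,6-bisphosphate, Tigar, a phosphatase gene, fell by 0.33 ± 0.19 (adjusted p = 0.0294), a call lost without mouse 1, 2 or 3, on the arrays of either dye alone and without the Cy3 array of mouse 4 (adjusted p = 0.0601 to 0.122). Pfkfb2 had 0.12 ± 0.23 (adjusted p = 0.372).

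Among sugar and lactate transporters, 3 of 11 were higher and 0 lower, against 13.5% higher and 18.4% lower of all named genes. Slc5a1, the sodium-glucose cotransporter gene SGLT1, was the one gene of the 89 with a mean of at least 1. It had mouse means of 2.41, 1.28, 2.39 and 1.24, and rose by 1.83 ± 0.66 (adjusted p = 0.00223). Mice 1 and 3 were high in it, so mouse 3, the lowest for Fbp1, was among its high mice. Slc16a1, the lactate transporter gene MCT1, rose by 0.40 ± 0.24 (adjusted p = 0.023) and its partner Bsg, the basigin gene, by 0.26 ± 0.11 (adjusted p = 0.0378). Slc16a1 missed the threshold without mouse 1, 2 or 4 and Bsg without mouse 1, 2 or 3 or with the Cy3 arrays by themselves (adjusted p = 0.0694 to 0.177).

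In the pyruvate dehydrogenase list 4 of 8 genes were lower and none higher by limma, at an adjusted or an unadjusted p under 0.05, and the median was -0.28. Of all named genes 18.4% were lower and 13.5% higher. Pdha1, which encodes the alpha subunit, fell by 0.87 ± 0.15 (adjusted p = 0.00116) and lay between -1.04 and -0.73 in the 4 mice. Pdhb, the beta subunit gene, fell by 0.44 ± 0.14 as the mean of 3 probes at -0.45 to -0.43 (adjusted p = 0.00858). Pdk2, the gene of an inhibiting kinase of the complex, fell by 0.44 ± 0.07 (adjusted p = 0.00512). Dlat fell by 0.26 ± 0.14 (adjusted p = 0.0473), a call lost under 9 of the 13 alternatives run, among them leaving out any 1 mouse (adjusted p = 0.0513 to 0.17).

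Of 12 measured glycogen and galactose genes, 1 was higher and 3 were lower. For this and the lists that follow here, the shares of all named genes were 13.5% higher and 18.4% lower. Pygl, the liver glycogen phosphorylase gene, fell by 0.91 ± 0.40 (adjusted p = 0.00502), and its mouse means of -0.94, -0.43, -1.40 and -0.85 were lowest in mouse 3. Ugp2, which encodes the enzyme that makes UDP-glucose, fell by 0.74 ± 0.10 (adjusted p = 0.0013). The muscle phosphorylase gene Pygm fell by 0.30 ± 0.06 (adjusted p = 0.0178) and Phkg2, a phosphorylase kinase subunit gene, rose by 0.41 ± 0.30 (adjusted p = 0.0362). The muscle marker list was lower too, and its part in the Pygm value was not tested. The Pygm call was lost without mouse 1, 2 or 3 or on the Cy5 arrays alone, and Phkg2 without mouse 1, 2 or 4, on the Cy3 arrays alone or with placeholders kept (adjusted p = 0.0558 to 0.412). In the pentose phosphate pathway 2 of 6 were higher, the transketolase gene Tkt (0.34 ± 0.22, adjusted p = 0.0382) and Pgls (0.30 ± 0.13, adjusted p = 0.0263). Both calls were lost without mouse 1, 2 or 3 (adjusted p = 0.0638 to 0.145) and on the Cy3 arrays. Of 10 genes for the entry of fructose, sorbitol and glycerol, the glycerate kinase gene Glyctk was higher (0.37 ± 0.13, adjusted p = 0.0136). The triokinase gene Tkfc (-0.36 ± 0.13, adjusted p = 0.0146) and the lipase gene Pnpla2 (-0.34 ± 0.23, adjusted p = 0.0379) were lower. All 3 lost their call without at least 1 mouse (adjusted p = 0.0563 to 0.124).

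Among 13 regulators of gluconeogenic genes, 3 were higher and 3 lower, or 23.1% each way, against 13.5% and 18.4% of all named genes. The glucocorticoid receptor gene Nr3c1 fell by 0.80 ± 0.07 (adjusted p = 9.3e-04) and the forkhead factor gene Foxo1 by 0.70 ± 0.28 (adjusted p = 0.00516). Both were below the pool in 4 of 4 mice. The insulin receptor gene Insr rose by 0.50 ± 0.10 (adjusted p = 0.0044) and missed the threshold on the Cy5 arrays alone (adjusted p = 0.0518). Irs1 fell by 0.28 ± 0.14 (adjusted p = 0.0394), but its 2 probes gave -0.66 and 0.11, and the call was lost without any 1 mouse (adjusted p = 0.0556 to 0.122). The other 2 higher genes, named after their values were seen, were the vitamin D receptor gene Vdr (0.26 ± 0.07, adjusted p = 0.0309) and the liver factor gene Hnf4a (0.23 ± 0.03, adjusted p = 0.0389). Whether these 2 calls hold under the alternatives was not tested.

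**Figure D4:**
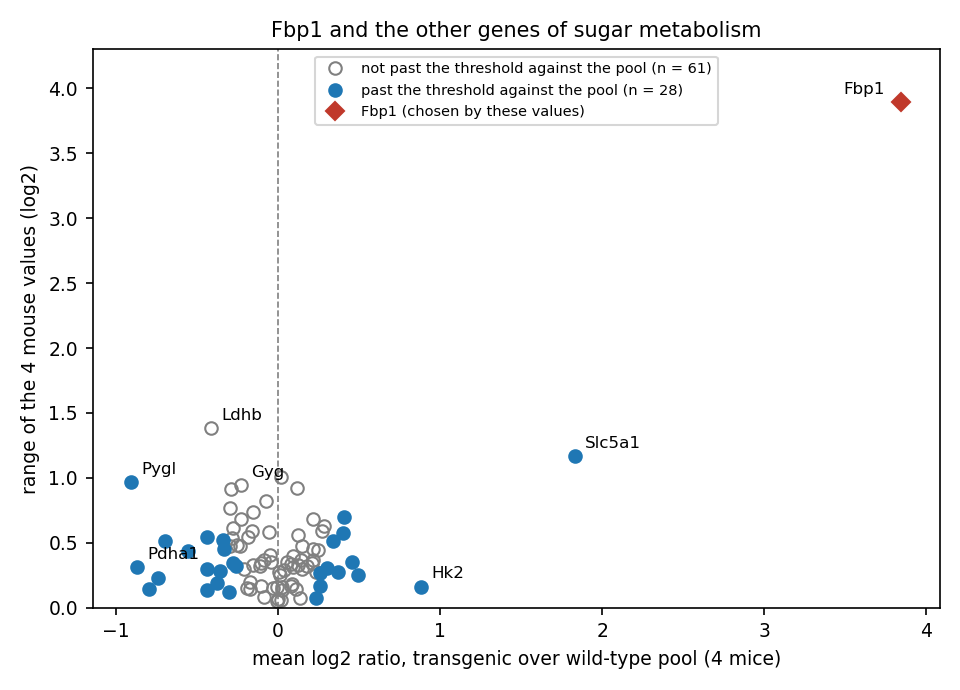
Mean log2 ratio of transgenic over pool (x axis, 4 mice) against the range of the 4 mouse values (y axis, log2) for Fbp1 and 89 other genes of sugar metabolism; filled circles passed the threshold against the pool, open circles did not. Fbp1 lies at 3.85 and 3.89, apart from the other genes, of which Slc5a1 has the highest mean, at 1.83.

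The spread between mice was tested for the same 89 genes by limma's F statistic over mice, fitted to the 8 arrays together with a dye term. The 2 arrays of a mouse are technical replicates, so this sets mice against array error only. It passed for 3 of them, or 3.37%, against 2.74% of the 8645 named genes tested. Ldhb, the heart form of lactate dehydrogenase, had mouse means of -0.78, 0.24, -1.14 and 0.03, a range of 1.39 (adjusted p = 0.0134). It was lowest in mouse 3, as Fbp1 was, but highest in mouse 2. Slc5a1 ranged by 1.17 (adjusted p = 0.0394) and the glycogenin gene Gyg by 0.94 (adjusted p = 0.0448), and neither was lowest in mouse 3. The highest range among the 89 was that of Ldhb, 1.39, and the median range 0.34. The order with mouse 4 highest and mouse 3 lowest was seen in 7 of the 89, taken at any range. Over all probes with a range of at least 1, it was seen in 213 of 1313, or 16.2%, and mouse 2 highest with mouse 3 lowest in 260, or 19.8%. That limit was not set on the 89, so the 2 counts are not comparable. Among 200 other probes that differed between mice, 10 had the Fbp1 order. The test was sensitive to single mice: 201 probes passed in all, 0.986% of 20392, but 0 without mouse 1 or mouse 3, 1 without mouse 2 and 495 without mouse 4, where 2177 to 3855 had an unadjusted p under 0.05. Without the Cy3 array of mouse 4 it passed 381 probes. The calls of Ldhb, Slc5a1 and Gyg were lost without mouse 2 or 3 (adjusted p = 0.105 to 0.196). Those of Slc5a1 and Gyg were also lost without mouse 1 and with placeholders kept, and that of Slc5a1 with quantile normalization.

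Fbp1 is best known from liver and kidney, so markers of those organs were read beside it. Of 13 measured markers of hepatocytes and kidney tubules, 1 was higher and 1 lower than the pool, against 13.5% higher and 18.4% lower of all named genes, and the list medians lay between -0.06 and -0.01 in the 4 mice, where Fbp1 was at 1.66 to 5.55. The higher one, the transthyretin gene Ttr, was at 0.30 ± 0.20 (adjusted p = 0.0447) and Apoa1, an apolipoprotein gene, at -0.39 ± 0.25 (adjusted p = 0.0286). Ttr and Apoa1 both lost their call without mouse 1, 3 or 4 (adjusted p = 0.0683 to 0.129). Between mice 1 of the 13 passed, named after its values were seen: Serpina1b, an alpha-1 antitrypsin gene, at 1.11, 0.29, -0.44 and -0.49 in mice 1 to 4 (adjusted p = 0.0151). It was highest in mouse 1 and nearly level in mice 3 and 4, the lowest and the highest mouse for Fbp1.

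The 3 macrophage lists and a list for alternative activation are read against the 13.5% of all named genes that were higher and the 18.4% that were lower. General macrophage markers were higher in 5 of 8 measured genes, with list medians of 1.11, 0.65, 0.88 and 0.73 in mice 1 to 4. Among them C1qa, a complement gene, rose by 1.89 ± 0.75 (adjusted p = 0.0028), the mannose receptor gene Mrc1 by 1.25 ± 0.27 (adjusted p = 9.1e-04) and the cathepsin S gene Ctss by 1.22 ± 0.51 (adjusted p = 0.00379). The other 2, outside the naming rule, were C1qb and C1qc. Markers of lipid-laden and multinucleated macrophages were higher in 5 and lower in 1 of 9, with medians of 0.66, 0.33, 0.65 and 1.06. Of these the cathepsin K gene Ctsk rose by 2.72 ± 0.67 (adjusted p = 8.2e-04), Gpnmb by 2.39 ± 1.48 (adjusted p = 0.0108) and the lipid receptor gene Trem2 by 1.87 ± 0.46 (adjusted p = 9.1e-04). Outside the naming rule, Acp5 and Cd9 were higher and the lipoprotein lipase gene Lpl lower. Alveolar macrophage markers were lower in 4 and higher in 1 of 5: the scavenger receptor gene Marco fell by 2.54 ± 0.28 (adjusted p = 8.1e-05) while the chitinase-like gene Chil3 rose by 4.43 ± 0.41 (adjusted p = 2.9e-05). The other 3 lower ones were Cidec (-1.55 ± 0.57, adjusted p = 0.00245, its name less sure as for the Tbl2 probe), Fabp4 and Fabp1, of which the first 2 also stand among the fat markers. Markers of alternative activation and type 2 immunity were higher in 7 of 8 measured genes, with medians of 3.10, 1.97, 2.66 and 2.26. Retnla, Ccl8 and Chil3 led them, and Chil3 is also counted in the alveolar list. This list is not confined to macrophage genes, since it holds the pendrin gene Slc26a4 (2.86). All 4 list medians were lowest in mouse 2. The lipid-laden median was highest in mouse 4, as Fbp1 was, but there it was the value of Gpnmb, which was lowest in that mouse. Of the other measured lipid-laden markers, only Cd9 was highest in mouse 4, and Plin2 and Apoe were lowest there. The part of macrophages in the Fbp1 values was not tested.

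The medians of the 3 epithelial lists were lowest in mouse 3, the lowest mouse for Fbp1, though most type 2 alveolar genes were not. Club cell markers, of which 5 of 9 were lower than the pool (Pon1, Cyp4b1, Gsta3, Ces1f and Aldh1a1) against 18.4% of all named genes, had medians of -1.16, -0.03, -1.39 and -0.26 in mice 1 to 4. Ciliated cell markers, 7 measured, had -0.27, 0.27, -0.56 and 0.07. Both lists were highest in mouse 2, where Fbp1 was highest in mouse 4. Type 2 alveolar markers had medians of 0.22, 0.10, -0.11 and -0.04. Among them Sftpc, Napsa, Lyz2 and Lcn2 were lowest in mouse 4, Sftpb and Abca3 in mouse 3 and Etv5 in mouse 2. Higher than the pool were 2 of 7, against 13.5% of all named genes. These were Lcn2 (0.93 ± 0.41, adjusted p = 0.00512, the mean of probes at -0.52 and 2.38) and the surfactant gene Sftpb (0.37 ± 0.19, adjusted p = 0.0214, lost without mouse 1 or 2 at adjusted p = 0.0879 to 0.0919). The heart and skeletal muscle list was lowest in mouse 3 and highest in mouse 4, at -0.81, -1.11, -1.18 and -0.57, but below the pool in 4 of 4 mice, where Fbp1 was above it. Of the other lists, B and plasma cell markers were higher in 6 of 7 and fat markers lower in 6 of 10, against 13.5% higher and 18.4% lower of all named genes. Their medians by mouse stand in the plot of marker lists with those of neutrophils, T cells, endothelium and fibroblasts. The part of all these cells in the Fbp1 values was not tested.

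**Figure D5:**
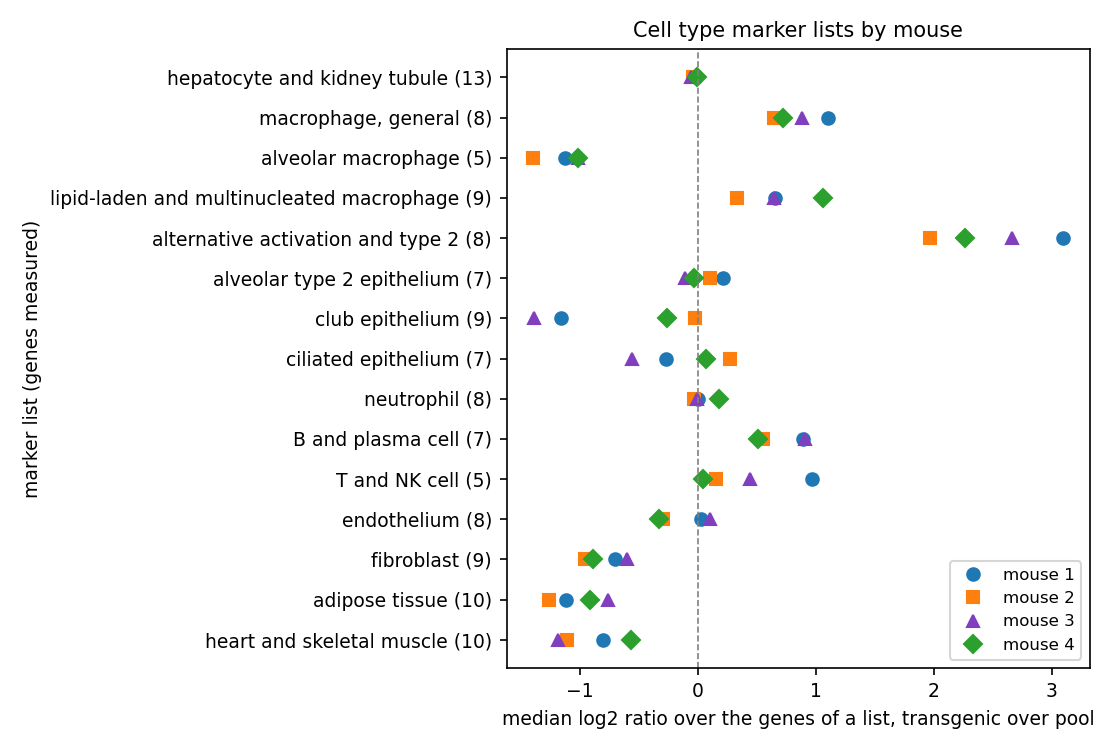
Median log2 ratio of transgenic over pool (x axis) over the measured genes of 15 cell type marker lists, 1 symbol for each transgenic mouse; the number of genes measured stands beside each list. Hepatocyte and kidney tubule markers stay between -0.06 and -0.01, and club and ciliated markers are lowest in mouse 3.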

How the data were processed

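Lung RNA was labelled indirectly with Cy3 or Cy5 dye, per the labels' protocols. The authors deposited a log2 ratio for each probe and array. How they corrected background, normalized or centred it is not stated in the sources used here. The 498 values beyond 10 in size, taken as placeholders for an empty channel, were set to missing, and 706 more were already missing. Probes with a value in each mouse were tested (20621 of 20794).

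Probe names came from the platform annotation, moved by 11 rows and updated through gene IDs with RefSeq (GRCm38.p6). They cover 12296 probes and 8741 genes, and annotation numbers above 20237 were not used. Dye-swapped arrays of a mouse were averaged and the 4 mouse means set against 0 in R 4.3.3 by limma 3.58.1 (lmFit, eBayes, 4.49 prior degrees of freedom, Benjamini-Hochberg over all probes or all named genes, adjusted p under 0.05). Probes of a gene were averaged. Differences between mice used a limma F test with the dye as covariate, and dye effects the within-mouse difference. The tests were checked on simulated data. That simulation gave every array the same noise for a probe, so it did not imitate the wider Cy3 array of mouse 4. Other steps ran in Python 3.11.15 (scipy 1.17.1, pandas 2.3.3, numpy 2.4.6; plots by matplotlib 3.10.9). Precision is limited by having 4 mice and 1 pool.

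The gene and the lists were chosen with earlier results of these data known. Named genes were every called gene of the gluconeogenesis, glycolysis and fructose 2,6-bisphosphate lists with Fbp2 and the phosphofructokinases, up to 4 called genes of each other pathway list by size, the 10 nearest to Fbp1 over mice, and up to 3 called genes of a marker list. Alternatives left out each mouse, used the arrays of either dye alone, centred or quantile-normalized the arrays, kept placeholders, used the mouse as a block with a dye term, robust eBayes or 1 probe per gene. Leaving out the Cy3 array of mouse 4 was added after seeing the data.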

Additional observations from a re-analysis of the deposited data

Results flagged for a closer look

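Single mice stood away from the other 3 in 2 of 60 sets of mouse values read by Dixon's criterion, which picks out about 5% of sets by chance. Fbp1 was not read this way, since it was picked for its range. The value of Marco in mouse 3, -2.96, lay apart from -2.36, -2.38 and -2.46 in mice 1, 2 and 4. The value of Pdk2 in mouse 2, -0.54, lay apart from -0.41, -0.40 and -0.41 in mice 1, 3 and 4.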

How the results depend on the processing

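The Fbp1 mean stayed between 3.28 and 4.57 with 1 mouse left out, and the range between mice spanned 1.48 (without mouse 3) to 3.89. The Fbp1 dye difference spanned -0.57 to -0.26 and passed under none of the alternatives run. With 1 mouse left out, probes called against the pool spanned 2547 to 4064 (5302 with all mice) and genes of sugar metabolism 15 to 23 (28). Probes that differed between mice spanned 0 to 495 (201) and genes of sugar metabolism 0 to 5 (3), where 11 to 19 had an unadjusted p under 0.05 by limma. With the Cy3 arrays by themselves, 3190 probes and 18 genes of sugar metabolism were called against the pool. Between mice, quantile normalization called 497 probes, keeping placeholders 78 probes and 1 gene of sugar metabolism, and leaving out the Cy3 array of mouse 4 called 381 probes. The cause of these differences was not tested. Of 26 named genes of sugar metabolism called against the pool, 11 kept their call under all 13 alternatives run and 15 lost it under at least 1; of 18 named markers, 15 kept it. None of these changed sign. Of 3 named genes of sugar metabolism called between mice, 0 kept their call under all 10 alternatives run. Using the mouse as a block with a dye term left the counts within 1.5 times, at 6152 probes and 31 genes of sugar metabolism. No paired analysis was possible because the pool is 1 control sample. Without spot brightness, what signal over background limits is unknown.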
